A study of Mus musculus with 8 samples.

Results

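Germ cells made from embryonic stem cells in hanging drops (iPGCs) were set against primordial germ cells (PGCs) taken from mouse embryos at embryonic day (E) 9.5. The groups compared hold 4 of the 8 libraries of the study, 2 per group, while spread was estimated from all 8. Tested were the 11083 of 20153 gene identifiers that reached 1 FPKM in 2 or more of the 8. The iPGCs came from BVSC stem cells, a line that reports on the germ cell genes Prdm1 and Dppa3, and were labelled passage 21. Each iPGC library started from 1500 cells. The PGCs were endogenous cells of Oct4gfpXCD1 embryos at passage 0, about 250 cells per library, in a strain named for an Oct4-driven GFP, which marks germ cells. PGC-like cells (PGCLCs) made in aggregates from BVSC cells at passage 21 and embryonic germ cell (EGC) lines 4 and 7, derived from E9.5 PGCs of the Oct4gfpXCD1 strain and at passage 6, were also sequenced, with 2 libraries each. All iPGCs derive from 1 stem cell line. The labels call replicates biological and do not give the days in hanging drop, how iPGCs were collected, or how many embryos gave each PGC library. Strain, origin, passage and cell number all differ between iPGCs and PGCs, and their parts in any difference cannot be told apart.

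PGCs are the founders of eggs and sperm. They arise in the epiblast under BMP signals, switch on Prdm1, Prdm14 and Tfap2c, keep or regain pluripotency genes such as Pou5f1 and Nanog, and at E9.5 migrate along the hindgut while DNA methylation is being lost. Germ cells made from stem cells are meant to pass through the same steps in a dish.

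Values were FPKM, which scale a gene's fragments to its length and to the library. Approximate depths were read from the smallest nonzero FPKM, multiplied by transcript length. They were 2.9 and 16.4 M reads for iPGC libraries 1 and 2, and 16.4 and 14.3 M reads for PGC libraries 1 and 2. Of the tested genes, 436 and 144 were listed at 0 in iPGC libraries 1 and 2, against 1208 and 1411 in PGC libraries 1 and 2. The median log2(FPKM + 1) was 2.90 in both iPGC libraries and 2.35 and 2.46 in the PGC libraries. A typical gene was therefore 0.47 higher in iPGCs on the log2 scale. Differences below are log2 differences of FPKM + 1, iPGCs minus PGCs, with that median shift of all tested genes subtracted, ± SE, and n = 2 against 2. Replicates lay closer together in iPGCs, where they typically differed by 0.39 on the log2 scale, than in PGCs, where they typically differed by 0.87 (median of absolute differences, genes averaging 10 FPKM or more).

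P-values were adjusted by the Benjamini-Hochberg method over all tested genes, with a threshold of 0.05. When only the 4 iPGC and PGC libraries were fitted, 0 genes passed in limma. In the main limma fit, with spread estimated from all 8 libraries, 88 genes (0.794%) passed. Of these, 83 (0.749%) were higher in iPGCs and 5 (0.0451%) were lower. A second fit, after every library had been moved to the same median, tests the difference from the typical gene. It called 46 genes (0.415%), 34 higher (0.307%) and 12 lower (0.108%). The fits shared 34 rises and all 5 falls. All 83 rises had both iPGC libraries above both PGC libraries, as had 39.4% of all tested genes, while 13.1% of all tested genes lay below in both. After equal library medians these shares were 24.9% higher and 25.7% lower. Of the 83 rises, 43 were under 1 FPKM in both PGC libraries, and 72 were at 10 FPKM or more in both iPGC libraries. The same shares were not counted over all tested genes. PGCLC and EGC libraries enter the estimate of spread and not the difference, and the fit assumes the same spread in all groups. With any 1 library left out, and so fewer degrees of freedom for the spread, the number of calls changed. It was 5 without iPGC library 1, 6 without iPGC library 2, 62 without PGC library 1, 222 without PGC library 2, 22 and 23 without PGCLC library 1 or 2, and 31 and 32 without EGC line 4 or 7. Mt2 and the microRNA loci Mir3063 and Mir3091 were the only genes called in every one of these 8 fits. In the fits without an iPGC, PGCLC or EGC library none of the falls passed (0 genes lower, limma).

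**Figure D1:**
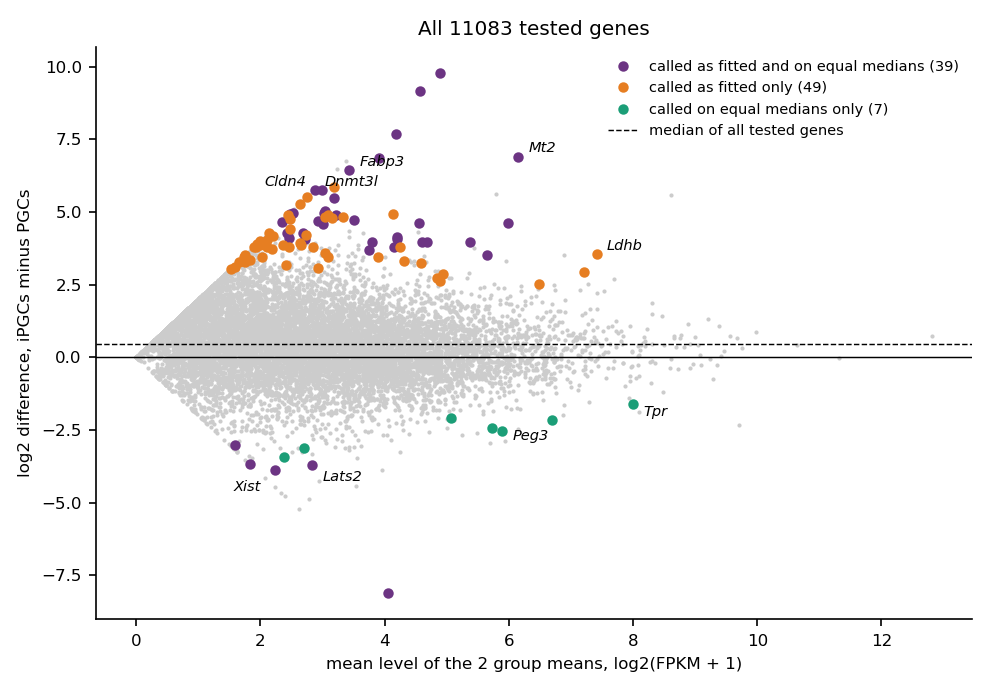
Log2 difference between iPGCs and PGCs (y axis) against the mean of both group levels in log2(FPKM + 1) (x axis) for the 11083 tested genes, each a point. Coloured points are genes past the threshold as fitted, on equal library medians, or in both, and the dashed line is the median difference of all tested genes, 0.47. Rises outnumber falls, and most called rises lie at the upper edge of the cloud, where PGC values are near 0.

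Outside the microRNA loci, the metallothionein gene Mt2 had the smallest p of all rises. Metallothioneins are small cysteine-rich proteins that bind zinc, copper and cadmium, and the factor Mtf1 switches their genes on through metal response elements. The genes Mt2 (8:94172664-94173568) and Mt1 (8:94179082-94180327, GRCm38, GENCODE M21) lie on the plus strand, 5513 bases apart. Their promoters, 250 bases before to 50 after the RefSeq start (GRCm38.p6), are shown because both genes had high levels in iPGCs. The RefSeq starts differ from the GENCODE starts given above, and the Mt2 window ends shortly after the GENCODE start. Capitals mark matches to the pattern TGCNCNC on either strand, and no matches overlap. The pattern is looser than the core of the metal response element, and matches to the stricter core were not counted.
Mt2, chr8:94172368-94172667, plus strand: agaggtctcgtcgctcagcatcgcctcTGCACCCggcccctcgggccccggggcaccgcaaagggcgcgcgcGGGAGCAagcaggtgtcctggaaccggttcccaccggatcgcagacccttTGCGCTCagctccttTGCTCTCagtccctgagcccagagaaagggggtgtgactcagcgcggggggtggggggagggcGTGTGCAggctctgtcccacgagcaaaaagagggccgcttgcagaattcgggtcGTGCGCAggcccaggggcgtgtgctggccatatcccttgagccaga
Mt1, chr8:94178839-94179138, plus strand: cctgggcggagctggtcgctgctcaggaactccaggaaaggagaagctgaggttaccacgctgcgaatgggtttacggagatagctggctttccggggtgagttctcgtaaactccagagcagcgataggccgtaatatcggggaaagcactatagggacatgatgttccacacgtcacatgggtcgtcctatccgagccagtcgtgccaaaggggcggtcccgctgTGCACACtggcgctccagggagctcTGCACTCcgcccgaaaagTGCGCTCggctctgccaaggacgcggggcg
The Mt2 promoter holds 6 matches, 3 on each strand, and the Mt1 promoter holds 3, all on the plus strand. Of 32851 mouse promoters of the same 300 bases, 51% hold at least 1 match, 7.1% at least 3 and 0.225% at least 6. A match to 7 letters is a description of the sequence and not evidence of binding.

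Mt2 was at 614 and 973 FPKM in iPGC libraries 1 and 2 and at 9.45 and 3.01 FPKM in PGC libraries 1 and 2. The difference was 6.44 ± 0.53 (limma adjusted p = 0.00236). Mt1 was at 274 and 543 FPKM in iPGCs and 38.0 and 0.632 FPKM in PGCs. The PGC libraries lay far apart for Mt1, and its difference of 5.13 ± 1.23 did not pass (adjusted p = 0.0782). The zinc importer gene Slc39a14 lay on the other side, at 7.24 and 7.66 FPKM in iPGCs and 30.0 and 88.6 FPKM in PGCs, and did not pass either (-3.11 ± 0.62, adjusted p = 0.0806). Mtf1 itself was at 7.21 and 9.13 FPKM in iPGCs and 1.48 and 4.84 FPKM in PGCs (adjusted p = 0.364). Of 13 tested metallothionein and zinc handling genes, Mt2 alone rose and 0 fell in limma, and the list median was 0.07 above that of all tested genes.

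Genes of fatty acid use gave further rises. Fabp3, the heart-type fatty acid binding protein that carries fatty acids in the cytoplasm, was at 88.3 and 111 FPKM in iPGCs and at 0.198 and 0.107 FPKM in PGCs. It rose by 5.97 ± 0.65 (adjusted p = 0.00868). Acadvl, which opens mitochondrial beta-oxidation of very long chains, was at 20.3 and 47.6 FPKM in iPGCs and at 0.0471 FPKM or less in PGCs, a rise of 4.51 ± 0.63 (adjusted p = 0.0194). These were 2 of 20 tested members of the fatty acid list, whose median was 0.46 above that of all tested genes. The carnitine palmitoyltransferase gene Cpt2 did not pass (25.4 and 25.0 FPKM in iPGCs, 0.0724 and 1.77 FPKM in PGCs, adjusted p = 0.11), and neither did the thiolase gene Acaa2 (14.9 and 8.17 FPKM in iPGCs, 0.797 and 0.048 FPKM in PGCs, adjusted p = 0.072). The fatty acid synthase gene Fasn was at 33.9 and 46.0 FPKM in iPGCs, inside the PGC values of 16.3 and 89.4 FPKM. The desaturase gene Scd1 did not overlap, at 8.36 and 8.74 FPKM in iPGCs and 0.696 and 3.36 FPKM in PGCs, and did not pass (1.35 ± 0.64, adjusted p = 0.178).

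Other mitochondrial genes were chosen for mention after their values were seen. Hadh, the short-chain hydroxyacyl-CoA dehydrogenase of beta-oxidation, was at 29.5 and 22.3 FPKM in iPGCs and 1.99 and 0.256 FPKM in PGCs (3.32 ± 0.60, adjusted p = 0.0376). The respiratory complex III subunit gene Uqcr10 was at 477 and 344 FPKM in iPGCs and 37.3 and 74.4 FPKM in PGCs (2.45 ± 0.46, adjusted p = 0.0376). Idh2, the mitochondrial isocitrate dehydrogenase, was at 85.6 and 63.1 FPKM in iPGCs and 13.6 and 7.57 FPKM in PGCs (2.27 ± 0.46, adjusted p = 0.0426). None of these passed on equal library medians (adjusted p = 0.0654 for Hadh, 0.0581 for Uqcr10 and 0.0794 for Idh2). Among the 27 tested genes of the fixed oxidative phosphorylation list 0 rose and 0 fell in limma, with a list median 0.28 above that of all tested genes. The ATP synthase gene Atp5b was at 2658 and 2413 FPKM in iPGCs and 2448.5 and 2696 FPKM in PGCs.

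Of the cholesterol and apolipoprotein list, 1 of 18 genes rose and 0 fell in limma, and the median differed from that of all tested genes by -0.02. Apoe, the lipid carrier protein, was at 175 and 153 FPKM in iPGCs and 7.10 and 12.7 FPKM in PGCs (3.50 ± 0.60, adjusted p = 0.0331). Its neighbour Apoc1 was at 85.1 and 123 FPKM in iPGCs and 1.09 and 12 FPKM in PGCs, and missed the threshold (3.85 ± 0.80, adjusted p = 0.0551).

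Epithelial junction genes included a pair of claudins, the proteins that form the strands of tight junctions. Cldn4 was at 59.2 and 55.7 FPKM in iPGCs and 0.0449 and 0.143 FPKM in PGCs, a rise of 5.27 ± 0.51 (adjusted p = 0.0053). Cldn6 was at 64.7 and 73.2 FPKM in iPGCs and 0.290 and 0.104 FPKM in PGCs (5.40 ± 1.01, adjusted p = 0.045). Cldn6 did not pass on equal library medians (adjusted p = 0.0721), and its call was lost in each fit without an iPGC or PGC library. It was at 2.31 and 40.7 FPKM in PGCLC libraries 1 and 2. Cldn4 and Cldn6 were the 2 rises among 26 tested members of the epithelial list, with 0 falls, and the list median was 0.87 above that of all tested genes. The junction gene Jup (18.2 and 52.3 FPKM in iPGCs, 5.00 and 1.53 FPKM in PGCs) and the transcription factor gene Grhl2 (11.2 and 5.39 FPKM in iPGCs, 0.371 and 0.0369 FPKM in PGCs) did not pass (adjusted p = 0.0806 and 0.0765). Genes that PGCs express themselves were nearer: Cdh1, the E-cadherin gene, was at 47.5 and 41.6 FPKM in iPGCs and 16.1 and 25.2 FPKM in PGCs, and Epcam was at 93.4 and 78.7 FPKM in iPGCs and 51.0 and 52.8 FPKM in PGCs.

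Cldn6 also belongs to a list of gut endoderm markers, as does Spink3, a secreted trypsin inhibitor named Spink1 in GENCODE M21. Spink3 was at 60.3 and 32.8 FPKM in iPGCs and at 1.15 and 0 FPKM in PGCs, a rise of 4.49 ± 0.64 (adjusted p = 0.0194). Summed over the 12 markers, the level was 141 and 116 FPKM in iPGC libraries 1 and 2, against 7.82 and 6.23 FPKM in PGC libraries 1 and 2. Without those 2 genes it was 16.5 and 9.56 FPKM in iPGCs and 6.39 and 6.12 FPKM in PGCs. The sum over all 12 was 14.1 and 43.6 FPKM in PGCLC libraries 1 and 2. In EGC lines 4 and 7 it was 130 and 95.9 FPKM, so a high sum was not particular to iPGCs. The defining endoderm factors Sox17, Foxa1, Foxa2, Gata4 and Gata6 were under 1 FPKM in both iPGC libraries. Of the whole list 4 genes reached the filter, 2 rose and 0 fell in limma.

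Of the genes for adhesion and migration of germ cells, 1 of 15 rose and 0 fell in limma, with a median 0.35 below that of all tested genes. Cd9, a membrane tetraspanin, was at 31.1 and 47.9 FPKM in iPGCs and 0.959 and 0.369 FPKM in PGCs (4.13 ± 0.51, adjusted p = 0.0127). Integrin genes pointed both ways, and none passed. Itga6 was at 36.3 and 23.5 FPKM in iPGCs and 12.3 and 0.759 FPKM in PGCs, whereas Itgb3 was at 4.43 and 2.64 FPKM in iPGCs and 19.1 and 14.3 FPKM in PGCs.

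Dnmt3l stood out among the genes of DNA methylation. Its product has no catalytic activity of its own and stimulates the de novo methyltransferases Dnmt3a and Dnmt3b. Dnmt3l was at 51.8 and 53.4 FPKM in iPGCs and was listed at 0 in both PGC libraries (adjusted p = 0.0107). It was at 13.4 and 15.6 FPKM in PGCLCs and at 14.1 and 42.5 FPKM in EGC lines 4 and 7. Among 24 tested genes of methylation and demethylation it was the 1 rise, with 0 falls in limma, while the list median lay 0.61 below that of all tested genes. The de novo enzyme gene Dnmt3b was at 21.3 and 14.5 FPKM in iPGCs and 4.52 and 0.141 FPKM in PGCs (adjusted p = 0.11), and Dnmt3a overlapped, at 58.8 and 19.4 FPKM in iPGCs and 60.4 and 37.5 FPKM in PGCs. The maintenance enzyme gene Dnmt1 was at 49.5 and 31.5 FPKM in iPGCs and 49.5 and 66.7 FPKM in PGCs. Its partner Uhrf1 was at 32.8 and 20.5 FPKM in iPGCs and 13.5 and 2.08 FPKM in PGCs, and the oxidase gene Tet1 at 94.4 and 132 FPKM in iPGCs and 114 and 72.1 FPKM in PGCs.

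In the list of histone methylation and Polycomb genes 0 of 25 rose and 0 fell in limma, with a median 0.48 below that of all tested genes. Suz12, a core subunit of Polycomb complex 2, was at 131 and 125 FPKM in iPGCs and 14.4 and 32.4 FPKM in PGCs (2.04 ± 0.47, adjusted p = 0.0577). Its partners Ezh2 and Eed lay closer between the groups. Ezh2 was at 91.4 and 69.2 FPKM in iPGCs and 87.5 and 79.3 FPKM in PGCs, and Eed at 31.4 and 38.1 FPKM in iPGCs and 29.9 and 13.4 FPKM in PGCs.

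Of the imprinted genes, none of 11 maternally and none of 15 paternally expressed members passed as fitted (0 of each in limma). Peg3, a paternally expressed zinc finger gene, was at 25.1 and 22.2 FPKM in iPGCs and 162 and 126 FPKM in PGCs, a difference of -3.02 ± 0.47 (adjusted p = 0.0553). On equal library medians it fell (adjusted p = 0.0455). The growth regulators H19 and Igf2 were spread widely within PGCs. H19 was at 35.7 and 43.4 FPKM in iPGCs and 111 and 49.4 FPKM in PGCs, and Igf2 at 48.6 and 47.6 FPKM in iPGCs and 81.0 and 9.13 FPKM in PGCs.

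**Figure D2:**
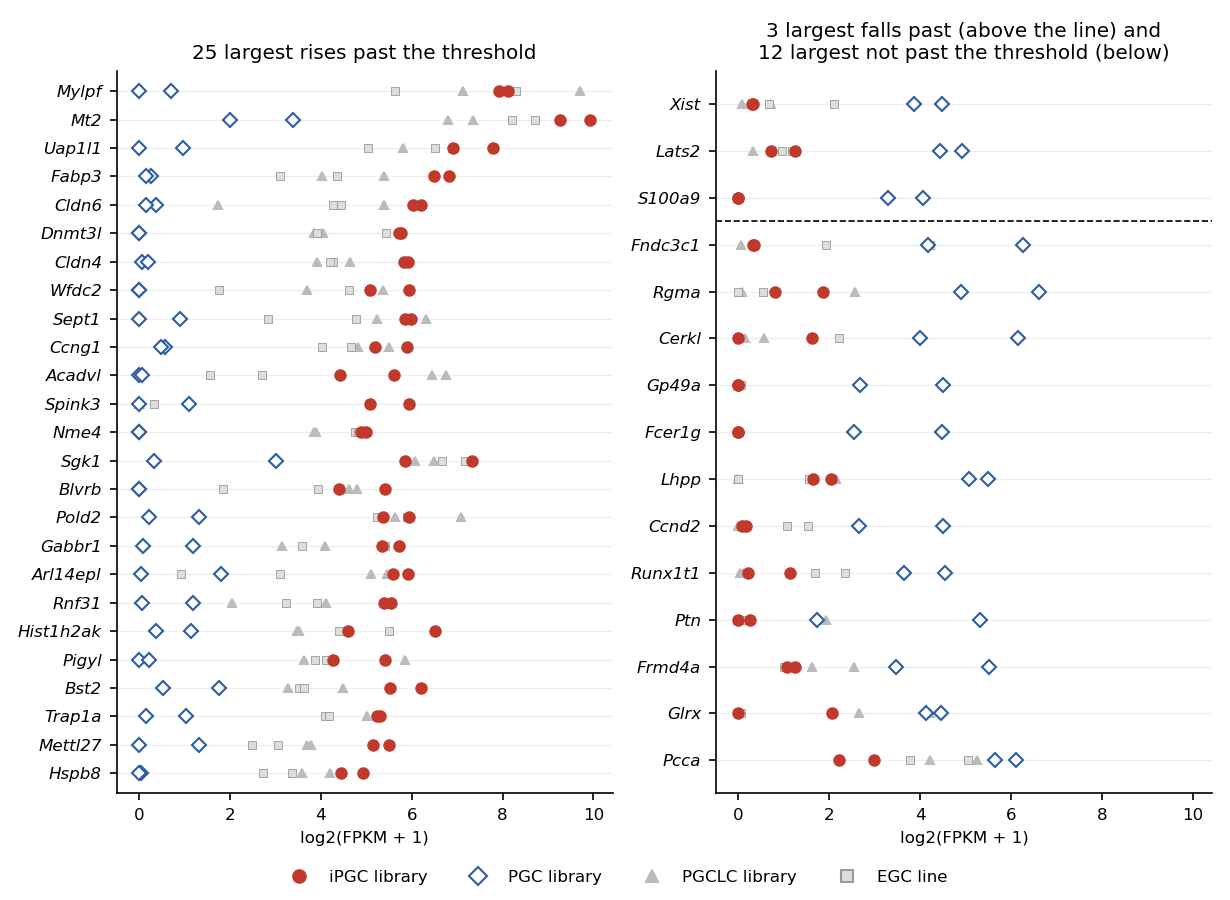
Level of each gene in log2(FPKM + 1) (x axis) in every library, for the 25 largest rises past the threshold (left), and for the 3 largest falls past it and the 12 largest falls that did not pass (right). Red circles are iPGC libraries, open blue diamonds PGC libraries, grey triangles PGCLC libraries and grey squares EGC lines. For every rise shown both iPGC libraries lie right of both PGC libraries, many of which are at or near 0, and Mt2 is the highest in iPGCs.

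The largest difference among protein-coding genes was that of Mylpf, which encodes a myosin light chain of fast skeletal muscle. Mylpf was at 278 and 243 FPKM in iPGCs and 0.634 and 0 FPKM in PGCs, a rise of 7.21 ± 0.98 (adjusted p = 0.0194). Sept1, a septin gene on the other strand whose end lies 148 bases from the end of Mylpf, was at 61.9 and 56.5 FPKM in iPGCs and 0 and 0.854 FPKM in PGCs (5.00 ± 0.73, adjusted p = 0.0206). Whether counting used strand is not given in the sources used here, so reads from the facing ends of these neighbours may not be told apart. Uap1l1, related to an enzyme of UDP-N-acetylglucosamine synthesis, was at 221 and 118 FPKM in iPGCs and 0 and 0.952 FPKM in PGCs (6.40 ± 0.68, adjusted p = 0.00868).

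Nme4, a mitochondrial nucleoside diphosphate kinase, was at 28.6 and 31.0 FPKM in iPGCs and listed at 0 in both PGC libraries (adjusted p = 0.00868). Blvrb, a biliverdin reductase, was at 20.2 and 41.4 FPKM in iPGCs and likewise listed at 0 in both PGC libraries (adjusted p = 0.0331). Pold2, a subunit of DNA polymerase delta, was at 40.6 and 60.3 FPKM in iPGCs and 1.48 and 0.160 FPKM in PGCs (4.43 ± 0.64, adjusted p = 0.0195). The secreted protein gene Wfdc2 was at 60.4 and 33.0 FPKM in iPGCs and listed at 0 in both PGC libraries (adjusted p = 0.047). Neither Blvrb nor Wfdc2 passed on equal library medians (adjusted p = 0.0525 and 0.0654), and Wfdc2 passed in 0 of the 4 limma fits that left out an iPGC or PGC library. In all, 11 of the 83 rises were of genes listed at 0 in both PGC libraries, out of 275 such genes at 1 FPKM or more in both iPGC libraries. An exact 0 in FPKM may be a failed estimate, and no fold is given against it.

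Further large rises were those of Sgk1, Gabbr1 and Bst2. Sgk1, a kinase induced by serum and glucocorticoids, was at 57.0 and 160 FPKM in iPGCs and 7.01 and 0.260 FPKM in PGCs (4.46 ± 0.84, adjusted p = 0.045), and did not pass on equal library medians (adjusted p = 0.0721). Gabbr1, a subunit of the GABA-B receptor, was at 39.9 and 51.4 FPKM in iPGCs and 1.27 and 0.0680 FPKM in PGCs (4.43 ± 0.74, adjusted p = 0.0331), and likewise missed it there (adjusted p = 0.0536). The antiviral membrane protein gene Bst2 was at 45.3 and 72.3 FPKM in iPGCs and 0.438 and 2.36 FPKM in PGCs (4.26 ± 0.65, adjusted p = 0.0224). Igfbp2, which binds insulin-like growth factors and was chosen after its values were seen, was at 112 and 118 FPKM in iPGCs and 5.16 and 2.63 FPKM in PGCs (4.15 ± 0.61, adjusted p = 0.0195). The rest of the 25 largest rises had iPGC levels between 18.3 and 90.6 FPKM and PGC levels of at most 2.46 FPKM. They were Rnf31, a ligase of linear ubiquitin chains, the small heat shock gene Hspb8, the X-linked antigen gene Trap1a, Pigyl, Arl14epl, Mettl27 and Hist1h2ak, a histone gene whose near-identical copies make its level uncertain. Of these, Rnf31, Pigyl, Arl14epl and Hist1h2ak did not pass on equal library medians (adjusted p = 0.0623, 0.0581, 0.0721 and 0.0518).

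Lats2 headed the Hippo pathway, in which the kinases Stk3 and Stk4 activate Lats1 and Lats2, which in turn keep the coactivators Yap1 and Wwtr1 out of the nucleus. Lats2 was at 1.39 and 0.637 FPKM in iPGCs and 29.2 and 20.8 FPKM in PGCs, a fall with a difference of -4.17 ± 0.62 (adjusted p = 0.0426). It was also low in the other cultured cells, at 0.242 and 1.36 FPKM in PGCLCs and 0.956 and 1.27 FPKM in EGCs. Its paralogue Lats1 showed no such gap, at 3.69 and 2.80 FPKM in iPGCs and 3.28 and 2.08 FPKM in PGCs. Upstream, Stk3 was at 2.69 and 7.02 FPKM in iPGCs and 17.7 and 55.1 FPKM in PGCs (-3.04 ± 0.69, adjusted p = 0.112), and Nf2, the merlin gene, at 14.6 and 14.5 FPKM in iPGCs and 37.9 and 43.7 FPKM in PGCs (-1.89 ± 0.43, adjusted p = 0.137). Neither passed. Downstream, Yap1 was at 24.1 and 27.8 FPKM in iPGCs and 20.6 and 18.6 FPKM in PGCs. The target gene Ccn2 was at 10.1 and 13.5 FPKM in iPGCs and at 0.0256 FPKM or less in PGCs, and did not pass (3.18 ± 0.69, adjusted p = 0.0577). Of 23 tested members of the pathway list 1 fell and 0 rose in limma, with a median 0.08 below that of all tested genes.

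Xist, the RNA that coats and silences an X chromosome in female cells, was at 0.228 and 0.244 FPKM in iPGCs and 21.4 and 13.5 FPKM in PGCs (-4.33 ± 0.67, adjusted p = 0.0465). The Y-linked gene Eif2s3y was read in every library of both groups, at 9.97 and 7.27 FPKM in iPGCs and 12.7 and 50.9 FPKM in PGCs. The PGC libraries thus held both a female and a male transcript. Kdm5d, another Y-linked gene, was at 0.339 and 1.07 FPKM in iPGCs and 12 and 5.80 FPKM in PGCs (-2.97 ± 0.62, adjusted p = 0.0964). Of 378 tested X-linked genes 6 rose and 2 fell in limma, and their median lay 0.19 below that of all tested genes. Rises made up 1.59% of tested X-linked genes and 0.719% of tested autosomal genes. The X-linked rises included Esx1, Cited1 and Usp26, genes known from placenta or testis and picked with their values in view. Esx1 was at 8.07 and 7.74 FPKM in iPGCs and 0 and 0.0510 FPKM in PGCs, Cited1 at 5.42 and 9.69 FPKM in iPGCs and 0 in both PGC libraries, and Usp26 at 9.98 and 10.1 FPKM in iPGCs and 0 in both PGC libraries. They passed as fitted (adjusted p = 0.0497, 0.0426 and 0.0465) but not on equal library medians (adjusted p = 0.0926, 0.0794 and 0.0812), nor in any of the 4 limma fits without an iPGC or PGC library (0 of 4 each). The other X-linked fall was Aff2, at 0.0735 and 0.0391 FPKM in iPGCs and 8.00 and 7.03 FPKM in PGCs (-3.48 ± 0.49, adjusted p = 0.0408), a gene likewise picked after its values were seen.

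S100a9, a calcium-binding protein of neutrophils and monocytes, was listed at 0 in both iPGC libraries and was at 15.6 and 8.77 FPKM in PGCs (adjusted p = 0.0256). Myeloid receptor genes among the largest falls that did not pass followed the same pattern. Fcer1g was listed at 0 in both iPGC libraries and was at 21.4 and 4.85 FPKM in PGCs (adjusted p = 0.06), and Gp49a was listed at 0 in both iPGC libraries and was at 21.8 and 5.42 FPKM in PGCs (adjusted p = 0.0538). Summed over 13 matched blood and myeloid markers, the level was 15.0 and 43.3 FPKM in iPGC libraries 1 and 2, against 185 and 14.5 FPKM in PGC libraries 1 and 2. The list as a whole did not share the pattern. Of its 5 tested members 0 rose and 1 fell in limma. Against the median of all tested genes 3 lay above and 2 below, and the list median was 0.39 above it. Lyz2 was at 62.1 FPKM in PGC library 1 and 0.713 FPKM in PGC library 2, Pf4 at 27.2 FPKM and 0, and Ptprc at 3.09 FPKM and 0, while Tyrobp was listed at 0 in all 4 libraries. The part of other cells in the falls of the myeloid genes was not tested. Extraembryonic endoderm markers summed to 158 and 139 FPKM in iPGCs and 325 and 172 FPKM in PGCs, with Afp at 0.0284 FPKM or less in iPGCs and at 82.6 FPKM and 0 in PGC libraries 1 and 2. In bulk RNA, fewer cells of a type and less RNA per cell cannot be told apart.

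**Figure D3:**
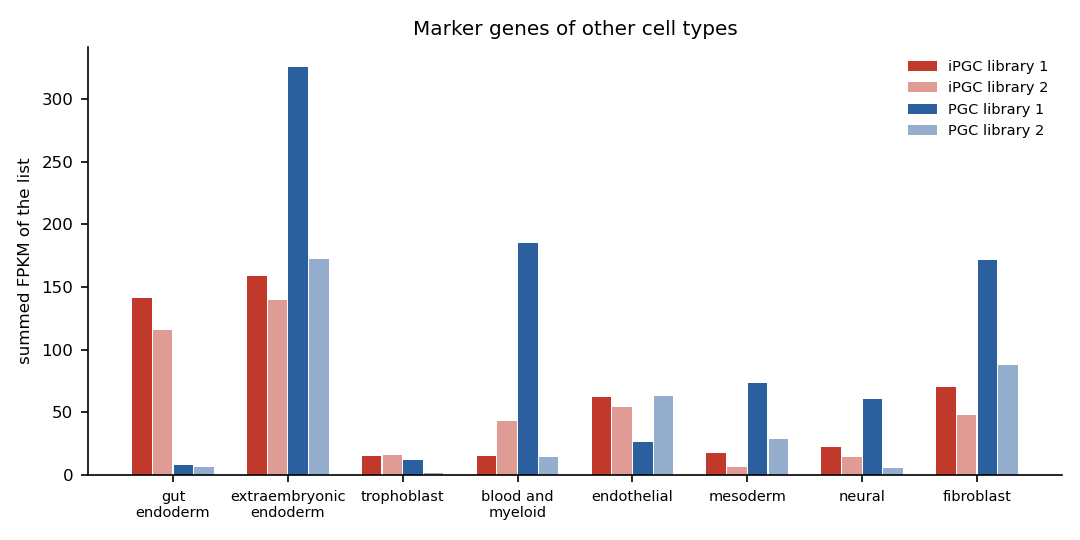
Summed FPKM (y axis) of 8 lists of marker genes of other cell types (x axis) in iPGC libraries (red) and PGC libraries (blue), with library 1 dark and library 2 pale. The sum for gut endoderm is 141 and 116 FPKM in iPGCs and 7.82 and 6.23 FPKM in PGCs. Without Cldn6 and Spink3 it is 16.5 and 9.56 FPKM in iPGCs and 6.39 and 6.12 FPKM in PGCs. The blood and myeloid sum is highest in PGC library 1, at 185 FPKM.

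Among the largest falls that did not pass, Rgma, a co-receptor for BMPs, was at 2.63 and 0.754 FPKM in iPGCs and 28.7 and 97.5 FPKM in PGCs (-4.89 ± 0.96, adjusted p = 0.0766). Ccnd2, the cyclin D2 gene, was at 0.0635 and 0.125 FPKM in iPGCs and 21.8 and 5.31 FPKM in PGCs (-3.92 ± 0.70, adjusted p = 0.0657). Pcca, a subunit of the mitochondrial propionyl-CoA carboxylase, was at 6.97 and 3.66 FPKM in iPGCs and 68.2 and 49.3 FPKM in PGCs (-3.74 ± 0.62, adjusted p = 0.0584). The other members of this set were Fndc3c1, Cerkl, Lhpp, Ptn, Frmd4a, Glrx and Runx1t1, with at most 3.14 FPKM in either iPGC library.

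On equal library medians 7 further genes fell, of which those named here, apart from Peg3 and Runx1t1, were picked with their values in view. Tpr, a nuclear pore basket protein gene, was at 172 and 124 FPKM in iPGCs and 446 and 445 FPKM in PGCs (equal-median adjusted p = 0.0405). Rbbp6, a ubiquitin ligase gene, was at 51.9 and 44.7 FPKM in iPGCs and 191 and 249 FPKM in PGCs (0.0322), and Hmgn5, a nucleosome-binding protein gene on the X chromosome, at 23.3 and 20.1 FPKM in iPGCs and 117 and 127 FPKM in PGCs (0.0432). The cytoskeletal adducin gene Add1 was at 13.3 and 17.5 FPKM in iPGCs and 64.9 and 70.8 FPKM in PGCs (0.0498). The PGC replicates lay close together for these genes. The others were Peg3, described above, the kinase gene Lrrk2 and the corepressor gene Runx1t1, with equal-median adjusted p = 0.0498 and 0.0495.

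Germ cell identity was checked with 15 early PGC genes, all of which were tested. None rose and none fell in limma (0 of 15 each way), and their median was 0.63 below that of all tested genes. The specification factor genes overlapped between groups. Prdm1 was at 21.2 and 22.8 FPKM in iPGCs and 14.9 and 42.5 FPKM in PGCs, Prdm14 at 4.29 and 10.6 FPKM in iPGCs and 6.17 and 7.39 FPKM in PGCs, and Tfap2c at 26.9 and 34.4 FPKM in iPGCs and 23.1 and 30.2 FPKM in PGCs. Dppa3, which protects methylation in the early embryo, was at 423 and 317 FPKM in iPGCs and 409 and 574 FPKM in PGCs. Both groups thus expressed the defining genes of their label, and a p that misses the threshold does not show equal levels.

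Other early PGC genes differed in how far the groups lay apart. Nanos3, an RNA-binding protein needed for PGC survival, was at 0.737 and 2.13 FPKM in iPGCs and 7.37 and 22.3 FPKM in PGCs (-3.05 ± 0.78, adjusted p = 0.139). Kit, the receptor for stem cell factor, was at 18.1 and 21 FPKM in iPGCs and 35.0 and 96.5 FPKM in PGCs (-2.00 ± 0.57, adjusted p = 0.191). The groups did not overlap for these genes or for Itgb3, and none of them passed. They overlapped for the RNA-binding protein genes Dnd1 (5.18 and 8.86 FPKM in iPGCs, 0.732 and 7.77 FPKM in PGCs) and Lin28a (25.4 and 19.5 FPKM in iPGCs, 16.2 and 38.5 FPKM in PGCs). After equal library medians 1 of the 15 genes was higher and 4 were lower without overlap, against 24.9% and 25.7% of all tested genes.

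Later germ cell genes, which act from the gonad to meiosis and are largely held silent by promoter methylation, had a median 0.66 above that of all tested genes, with 0 rises and 0 falls among 19 tested in limma. Dazl was at 4.26 and 7.00 FPKM in iPGCs and 0 and 0.156 FPKM in PGCs (2.13 ± 0.57, adjusted p = 0.0782). The meiotic cohesin gene Smc1b was at 9.84 and 8.96 FPKM in iPGCs and 0.0366 and 0.546 FPKM in PGCs (2.57 ± 0.57, adjusted p = 0.0577). Brdt, a testis bromodomain gene, was at 4.01 and 4.32 FPKM in iPGCs and listed at 0 in both PGC libraries. Levels of Ddx4, the vasa helicase gene, overlapped, at 4.30 and 2.23 FPKM in iPGCs and 6.10 and 0.0183 FPKM in PGCs. After equal library medians 11 of the 19 were higher and 0 lower without overlap, against 24.9% and 25.7% of all tested genes. Every tested member of the list was at 15.4 FPKM or less in both iPGC libraries. Levels of the meiotic cohesin gene Stag3 overlapped, at 14.5 and 15.4 FPKM in iPGCs and 8.77 and 70.4 FPKM in PGCs, and Mov10l1, a helicase gene of the piRNA pathway, was at 8.86 and 2.77 FPKM in iPGCs and 0 and 23.3 FPKM in PGCs.

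**Figure D4:**
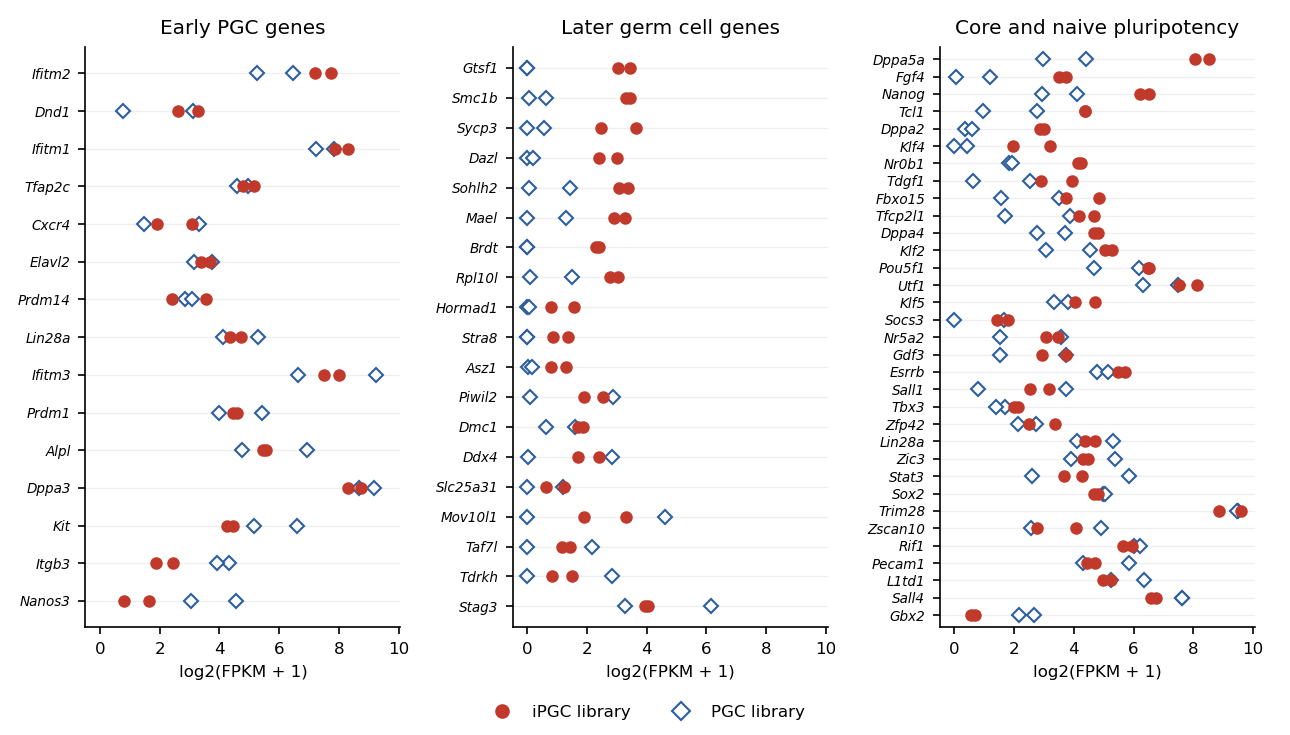
Level in log2(FPKM + 1) (x axis) of early PGC genes, later germ cell genes and core and naive pluripotency genes in each iPGC library (red circles) and PGC library (open blue diamonds), ordered by difference. Dppa5a and Nanog are the pluripotency genes past the threshold, Nanos3 is the lowest of the early PGC genes in iPGCs, and Dazl is under 1 FPKM in PGCs.

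Pluripotency genes gave 1 rise in each list. Nanog, a factor of the pluripotency core, was at 73.2 and 90.9 FPKM in iPGCs and 6.69 and 16.1 FPKM in PGCs (2.38 ± 0.48, adjusted p = 0.0426), and did not pass on equal library medians (adjusted p = 0.0725). Its partners Pou5f1 and Sox2 did not share that gap. Pou5f1 was at 89.9 and 89.0 FPKM in iPGCs and 24.7 and 72.1 FPKM in PGCs, and Sox2 at 24.6 and 26.8 FPKM in iPGCs and 30.5 and 31.8 FPKM in PGCs. The zinc finger factor gene Sall4 was at 108 and 93.6 FPKM in iPGCs and 193 and 194 FPKM in PGCs (-1.41 ± 0.36, adjusted p = 0.201). Of 15 core genes 1 rose and 0 fell, with a median 0.11 above that of all tested genes.

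Dppa5a, an RNA-binding protein gene of naive pluripotent cells, was at 370 and 267 FPKM in iPGCs and 6.78 and 20.1 FPKM in PGCs (4.15 ± 0.60, adjusted p = 0.0195). It was the 1 rise among 18 naive genes, with 0 falls, and their median was 0.33 above that of all tested genes. The factor gene Esrrb was at 51.0 and 43.0 FPKM in iPGCs and 26.6 and 34.3 FPKM in PGCs, and Zfp42 was at 4.71 and 9.22 FPKM in iPGCs and 5.60 and 3.43 FPKM in PGCs. Of 13 primed epiblast genes 0 rose and 0 fell in limma, although their median was 1.28 above that of all tested genes. Dnmt3b, described above, reached the highest iPGC levels of the list. Otx2 was at 8.09 and 5.37 FPKM in iPGCs and listed at 0 in both PGC libraries, Nodal at 7.18 and 6.69 FPKM in iPGCs and 0.280 and 1.84 FPKM in PGCs, and Fgf5 at 1.38 and 1.66 FPKM in iPGCs and 1.11 and 0 FPKM in PGCs. Lef1, a Wnt effector of the same list, lay on the other side, at 2.07 and 3.01 FPKM in iPGCs and 27.4 and 31.3 FPKM in PGCs (-3.58 ± 0.94, adjusted p = 0.139).

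Targets of p53 had one of the highest list medians, 1.26 above that of all tested genes, yet 1 of 19 rose and 0 fell in limma. Ccng1, the cyclin G1 gene, was at 58.2 and 35.7 FPKM in iPGCs and 0.488 and 0.396 FPKM in PGCs (4.55 ± 0.53, adjusted p = 0.0107). The pro-apoptotic gene Pmaip1 was at 10.4 and 6.27 FPKM in iPGCs and listed at 0 in both PGC libraries (adjusted p = 0.0551). Phlda3 was at 6.21 and 13.5 FPKM in iPGCs and 0 and 0.153 FPKM in PGCs (adjusted p = 0.0636). For Cdkn1a, the p21 gene, the PGC libraries lay far apart, with 62.7 and 75.3 FPKM in iPGCs and 0 and 48.7 FPKM in PGCs. Trp53 itself was at 67.3 and 116 FPKM in iPGCs and 73.4 and 137 FPKM in PGCs.

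Oxidant defence genes had a median 0.75 above that of all tested genes, with 0 of 18 rising and 0 falling in limma. Sod1, the cytosolic superoxide dismutase, was at 564 and 483 FPKM in iPGCs and 61.1 and 106 FPKM in PGCs (2.21 ± 0.49, adjusted p = 0.0528), and Cat, the catalase gene, at 34.9 and 30.3 FPKM in iPGCs and 1.03 and 5.42 FPKM in PGCs (2.75 ± 0.72, adjusted p = 0.0787). In the list of immediate early and stress genes Sgk1 was the 1 rise of 18, with 0 falls, and the median was 0.52 above that of all tested genes. The small heat shock gene Hspb1 was at 24.8 and 49.5 FPKM in iPGCs and 0.265 and 3.87 FPKM in PGCs (3.40 ± 0.70, adjusted p = 0.0528).

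Glycolysis gave 1 rise and 0 falls among 23 genes in limma, with a median 0.54 above that of all tested genes. Ldhb, the heart-type lactate dehydrogenase subunit, was at 779 and 436 FPKM in iPGCs and 78.8 and 29.9 FPKM in PGCs (3.09 ± 0.54, adjusted p = 0.0331), and missed the threshold on equal library medians (adjusted p = 0.0581). The muscle-type subunit Ldha was at 78.3 and 38.1 FPKM in iPGCs and 69.1 and 82.0 FPKM in PGCs. Among 31 cell cycle genes 1 rose and 0 fell, and the median was 0.07 above that of all tested genes. Cdk1, the mitotic kinase gene, was at 110 and 48.3 FPKM in iPGCs and 4.76 and 9.74 FPKM in PGCs (2.77 ± 0.57, adjusted p = 0.0482), and did not pass on equal library medians (adjusted p = 0.0725). The proliferation marker Mki67 was at 29.4 and 31.6 FPKM in iPGCs and 69.1 and 63.1 FPKM in PGCs.

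**Figure D5:**
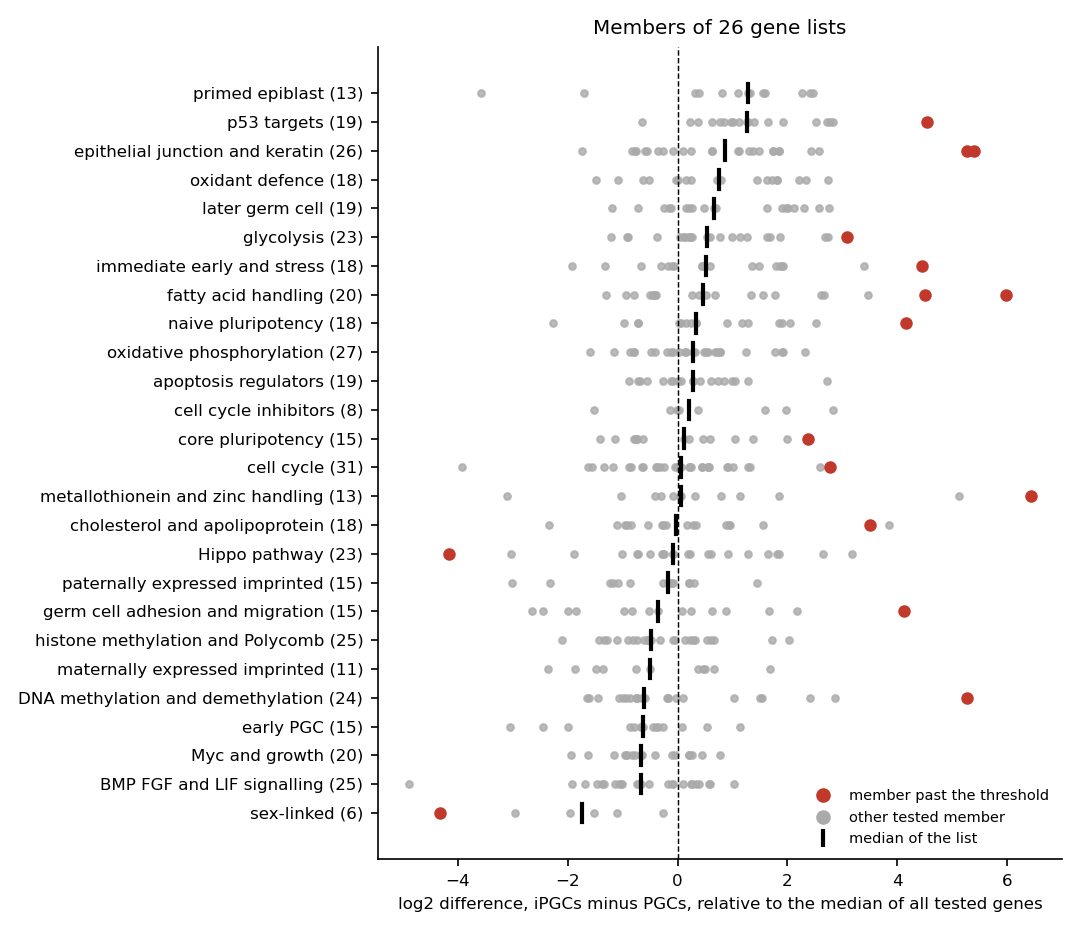
Log2 difference between iPGCs and PGCs relative to the median of all tested genes (x axis) for every tested member of 26 gene lists (rows, number tested in brackets). Red points passed the limma threshold, grey points did not, and black bars are list medians, ordered from primed epiblast (1.28) to sex-linked genes (-1.73).

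Signalling and growth lists had medians below that of all tested genes. In the BMP, FGF and LIF list 0 of 25 rose and 0 fell in limma, with a median 0.67 below that of all tested genes. The FGF target gene Etv5 was at 47.8 and 60.7 FPKM in iPGCs and 77.4 and 207 FPKM in PGCs, and the BMP target gene Id1 at 6.27 and 3.91 FPKM in iPGCs and 1.43 and 4.28 FPKM in PGCs. In the Myc and growth list 0 of 20 rose and 0 fell in limma, with a median 0.66 below that of all tested genes. Mycn was at 16.6 and 16.3 FPKM in iPGCs and 43.8 and 51.8 FPKM in PGCs (-1.94 ± 0.42, adjusted p = 0.124), while Myc was at 4.15 and 5.09 FPKM in iPGCs and 7.84 and 0 FPKM in PGCs.

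The PGCLC and EGC comparisons use the same PGC libraries, so levels are given side by side. Mt2 was at 162 and 110 FPKM in PGCLCs and 296 and 420 FPKM in EGCs, below both iPGC libraries and above both PGC libraries. Fabp3 was at 40.6 and 15.3 FPKM in PGCLCs and 7.58 and 19.6 FPKM in EGCs. Cldn4 was at 23.9 and 14.1 FPKM in PGCLCs and 18.4 and 17.4 FPKM in EGCs. For these 3 genes both iPGC libraries lay above, and both PGC libraries below, all PGCLC and EGC libraries. Spink3 differed from them, listed at 0 in both PGCLC libraries and at 0 and 0.247 FPKM in EGCs. Of all 83 rises, 30 had both iPGC libraries above every other library. Both PGCLC libraries lay above both PGC libraries for 77, and both EGC libraries did for 75. The rises were called for high iPGC and low PGC values in these same libraries, so such counts are no separate support. They were not taken over all tested genes. Mylpf was at 833 and 140 FPKM in PGCLCs and 48.4 and 314 FPKM in EGCs. Acadvl was at 107 and 85.9 FPKM in PGCLCs and 1.93 and 5.52 FPKM in EGCs.

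Among the called loci, 4 were microRNA genes, 3 higher and 1 lower in iPGCs. RNA-seq of sheared, amplified cDNA does not read mature microRNAs, and each of these loci lies inside a protein-coding gene and spans at most 110 bases, so its FPKM is uncertain. They were chosen after their values were seen. Mir3063, inside Igf2bp1, was at 1250 and 615 FPKM in iPGCs and near 0 in both PGC libraries. Mir3091, inside the ribosomal protein gene Rps21, was at 1016 and 315 FPKM in iPGCs and listed at 0 in the other libraries. Mir719, inside Nupl1, was at 112 and 12.5 FPKM in iPGCs and at 0.00194 FPKM or less in PGCs, and did not pass on equal library medians (adjusted p = 0.0714). Mir5110, inside Bcas3 on the opposite strand, was listed at 0 in both iPGC libraries and was at 62.9 and 1197 FPKM in PGCs. Mir3063 and Mir3091 had the largest rises, and Mir5110 the largest fall, of all tested genes.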

How the data were processed

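The series holds 8 mouse RNA-seq libraries, 2 in each of 4 groups. Per the labels' protocols, an Ovation kit made amplified cDNA from total RNA, ERCC spike-in RNA was added, and all libraries were pooled over 2 lanes and read for 50 bases from 1 end. The deposited table holds FPKM, computed by the authors with 1 column per library. TopHat2, Cufflinks and GRCm38 (mm10) are named in the submitters' processing notes, while their versions, the gene annotation and strand handling were not given in the sources used here. Depths are approximate, since neither spike-in values nor read totals were used here.

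The 20171 entries covered 20153 gene identifiers; 18 extra entries of 15 identifiers were dropped, keeping the entry with the highest total. GENCODE M21 supplied symbols for 19769 identifiers, since 27 symbols had become dates. A gene was tested if it reached 1 FPKM in 2 or more libraries. The test was limma 3.58.1 (R 4.3.3), robust and with a variance trend, on log2(FPKM + 1), which understates changes of low genes. Spread was estimated once from all 8 libraries (4 residual degrees of freedom, median prior 4.53). P-values are two-sided, measure the spread between these libraries, and test the difference before the median shift is subtracted unless equal library medians are named. The step was tested on simulated data.

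The members, the gene lists and the rule for named genes were chosen with earlier results of these data known. The rule names the 25 largest rises past the threshold, up to 25 such falls (3 qualified) and the 12 largest falls that did not pass. Such genes reach a mean of 10 FPKM in the group where they are higher, and the groups do not overlap. Predicted, ribosomal protein, microRNA, small nucleolar RNA genes and pseudogenes are skipped. Members of the lists may be named as well. Other genes are said to be chosen after their values were seen. Lists are described by counts and medians, without a test. Members without an entry, such as Cox4i1, Snrpn and the embryonic globins, were not analysed here.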

Additional observations from a re-analysis of the deposited data

How the results depend on the processing

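All 55 named genes past the threshold and 46 others kept the sign of their relative difference under every setting in which they were tested. Most were picked for large differences in these same libraries, so the sign could hardly change, and it is no separate support. The number of calls, 88 as fitted, was 166 with a pseudocount of 0.1, 34 with a pseudocount of 5, 18 without an expression filter, 45 after quantile normalization (37 higher, 8 lower), 46 on equal library medians (34 higher, 12 lower), and 32 in a fit of iPGC, PGC and PGCLC libraries. It was 0 in limma when only the 4 iPGC and PGC libraries were fitted, where 2271 genes had an unadjusted p below 0.05. Leaving out 1 library gave between 5 and 222 calls. A lone library is then assumed to vary like the other groups. With the replicate number as a block, EGC lines left out, 10 genes passed. Same-numbered libraries did not deviate together (r = 0.01 for iPGCs with PGCs, 0.06 for iPGCs with PGCLCs and -0.03 for PGCs with PGCLCs). Such correlations cannot tell whether same-numbered libraries were prepared together. On equal library medians, where the count was 46, it was 76 with a pseudocount of 0.1, 9 without a filter, 0 with the 4 libraries alone (1824 at an unadjusted p below 0.05), 12 without EGC lines, 10 with the replicate block and between 5 and 155 with 1 library left out. The median shift of 0.47 was 0.71 with a pseudocount of 0.1, 0.21 with a pseudocount of 5, 0.23 without a filter, -0.0267 after quantile normalization, -0.0283 on equal library medians, and between 0.44 and 0.55 with 1 library left out. As fitted, the smallest log2 difference that passed was 2.52, before the median shift is subtracted. By the approximate depths, iPGC library 1, at about 2.9 M reads, is the shallowest. It nevertheless had 9836 genes at 1 FPKM or more, against 10039 in iPGC library 2.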
